A study of Homo sapiens with 6 samples.

Results

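Matrix proteases, their inhibitors and the plasminogen system were followed by RNA sequencing in the cell line MDA-MB-231-DR through 9 genes, taken by gene name from a table of 58302 genes. They were 3 matrix metalloproteinases (MMP1, MMP3 and MMP14), 3 tissue inhibitors of metalloproteinases (TIMP1, TIMP2 and TIMP3), the urokinase gene PLAU, its receptor gene PLAUR, and SERPINE2, a serpin that inhibits urokinase and thrombin. MDA-MB-231-DR is a doxorubicin-resistant line derived from MDA-MB-231, a triple-negative breast cancer line with a mesenchymal character, and every library came from this resistant line. There were 3 libraries of control cells and 3 of cells treated with CYT, the plant compound cyperotundone. The resistant line was grown with a low concentration of doxorubicin, and the CYT dose, the treatment time and the control vehicle of the sequenced cells are not given in the sources used here (a dose and time are stated for a cell assay, not for the sequencing). The labels number the replicates but do not say that they came from separate cultures. The statistical methods of the study speak in general of 3 independent experiments in a group and do not tie this to the sequenced libraries, so p-values measure the spread between these libraries, which may be technical.

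Metalloproteinases cleave the extracellular matrix and are made as inactive precursors. MMP1 is a collagenase of fibrillar collagen, MMP3 (stromelysin 1) cleaves many matrix proteins and can activate other metalloproteinases, and MMP14 is anchored in the cell membrane, where with TIMP2 it activates the precursor of MMP2. The TIMP proteins block the active site of these enzymes. The plasminogen system works beside them. Urokinase, bound to its receptor at the cell surface, turns plasminogen into plasmin, which degrades fibrin and matrix and activates some metalloproteinases, and serpins such as SERPINE2 inactivate the activators. Invasive breast cancer cells are known for a high urokinase level.

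Sequence upstream of the RefSeq start sites (GRCh38.p14, the last 250 bases before the start) was available for 6 of the 9 genes. Stretches are shown for PLAU and PLAUR, which had lower levels in every CYT library, and for SERPINE2 and MMP14, whose mean levels were higher, so that their composition can be read beside the values. All are 5′ to 3′ on the strand of the gene. Capitals mark matches to 3 motifs, in either orientation. The GC box is spelled GGGCGG. The AP-1 heptamer is spelled TGAGTCA. The CCAAT box is spelled as its name. They were searched on both strands and chosen after the sequences had been read, and none of the marked matches overlap each other. For PLAU and PLAUR the window lies within annotated exons, and only 29 bases around the matches are given.
PLAU, chr10:73911075-73911103, plus strand: agggagGGGCGGcgccgGGGCGGgccctg
PLAUR, chr19:43670338-43670366, minus strand: tcacaactccaTGAGTCAgggccgagcca
SERPINE2, chr2:224031479-224031628, minus strand: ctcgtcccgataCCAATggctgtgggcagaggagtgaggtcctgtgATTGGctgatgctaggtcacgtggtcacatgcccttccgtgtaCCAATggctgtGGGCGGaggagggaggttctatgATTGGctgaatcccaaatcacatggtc
MMP14, chr14:22836407-22836556, plus strand: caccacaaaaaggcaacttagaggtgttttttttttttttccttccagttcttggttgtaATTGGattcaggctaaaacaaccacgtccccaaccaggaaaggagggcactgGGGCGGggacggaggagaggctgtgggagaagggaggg

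In the full 250 bases, the PLAU window ending at this start held 3 GC boxes, the PLAUR window 1 AP-1 heptamer, the MMP14 window 1 GC box and 1 CCAAT box, and the SERPINE2 window 7 CCAAT boxes and 1 GC box. PLAU and SERPINE2 each have another RefSeq start site. For both genes the start shown lies inside the annotated gene, and the other start lies nearer its annotated 5′ end. The window of the other PLAU start held 0 GC boxes and 1 CCAAT box, and that of the other SERPINE2 start 2 GC boxes and 0 CCAAT boxes, and the counts per gene do not tell which one was used. For the members without a stretch shown, the TIMP1 window held 2 GC boxes and 0 CCAAT boxes, and the TIMP3 window 5 GC boxes and 1 CCAAT box. Of 35116 RefSeq windows of this length, 42.6% held a GC box, 32.0% a CCAAT box and 4.2% the AP-1 heptamer. The matches describe the letters alone.

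Levels are given as raw counts and as CPM, counts scaled to the library size by the TMM method. Tests are from edgeR's quasi-likelihood fit, comparing CYT with control libraries over the 15572 genes that passed its filter on low counts, with Benjamini-Hochberg adjustment over all of them, and SE is the standard error of a log2 fold change. A gene was called when its adjusted p was under 0.05 and its absolute log2 fold change over 1. In bulk RNA, fewer cells making a transcript and less of it per cell cannot be told apart. Summed counts per library were 14050849 to 17770102 for the controls and 13056270 to 14106017 for the CYT-treated cells. CYT replicate 2 correlated least with the other libraries of its group (r of 0.904 and 0.905 across genes on the log2 scale, against 0.953 to 0.971 for all other pairs within a group). Of the markers that define the line, VIM and CD44 were well counted in every library, and of 8 markers of a luminal line ESR1 and PGR had at most 4 counts, while KRT19, AGR2, GATA3 and FOXA1 passed the filter on low counts. The summed level of 6 mesenchymal markers was 5002.5 to 5296.3 CPM in control and 2495.0 to 2809.1 CPM in CYT libraries. Of these 6, VIM was the 1 called (log2 fold change -1.3, mean of 2458.5 CPM in control and 996.3 CPM in CYT libraries). The log2 fold changes of the others ran from -1.03 (CAV1) to -0.19 (CD44). The summed level of the luminal markers was 236.2 to 439.4 CPM in control and 41.4 to 65.7 CPM in CYT libraries. KRT19 alone had 200.6 to 416.8 CPM in control and 10.5 to 38.5 CPM in CYT libraries (log2 fold change -3.45). Their part in the results below was not tested.

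Of the 9 genes, 8 passed the filter, and TIMP3 did not. After CYT treatment MMP3 and SERPINE2 were called higher and PLAU lower, so 3 of the 8 were called, beside 27.4% of all genes tested (15.2% higher and 12.2% lower). MMP3 passed the filter through its CYT libraries alone, so its place among the 8 already rests on a higher level after CYT, and of the 7 genes that passed through both groups 2 were called. PLAUR had an adjusted p under 0.05 but a change too small for a call. By the adjusted p alone 4 of the 8 passed, beside 28.6% of all genes tested (15.7% higher and 12.9% lower), and MMP1, MMP14, TIMP1 and TIMP2 were not called. In 4 of the 8 tested genes (MMP3, SERPINE2, PLAU and PLAUR) the libraries of the groups did not overlap in CPM, beside 46.1% of all genes tested (23.4% higher and 22.7% lower). The median log2 fold change of the 8 genes was 0.29, and that of all genes tested was 0.0064.

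**Figure D1:**
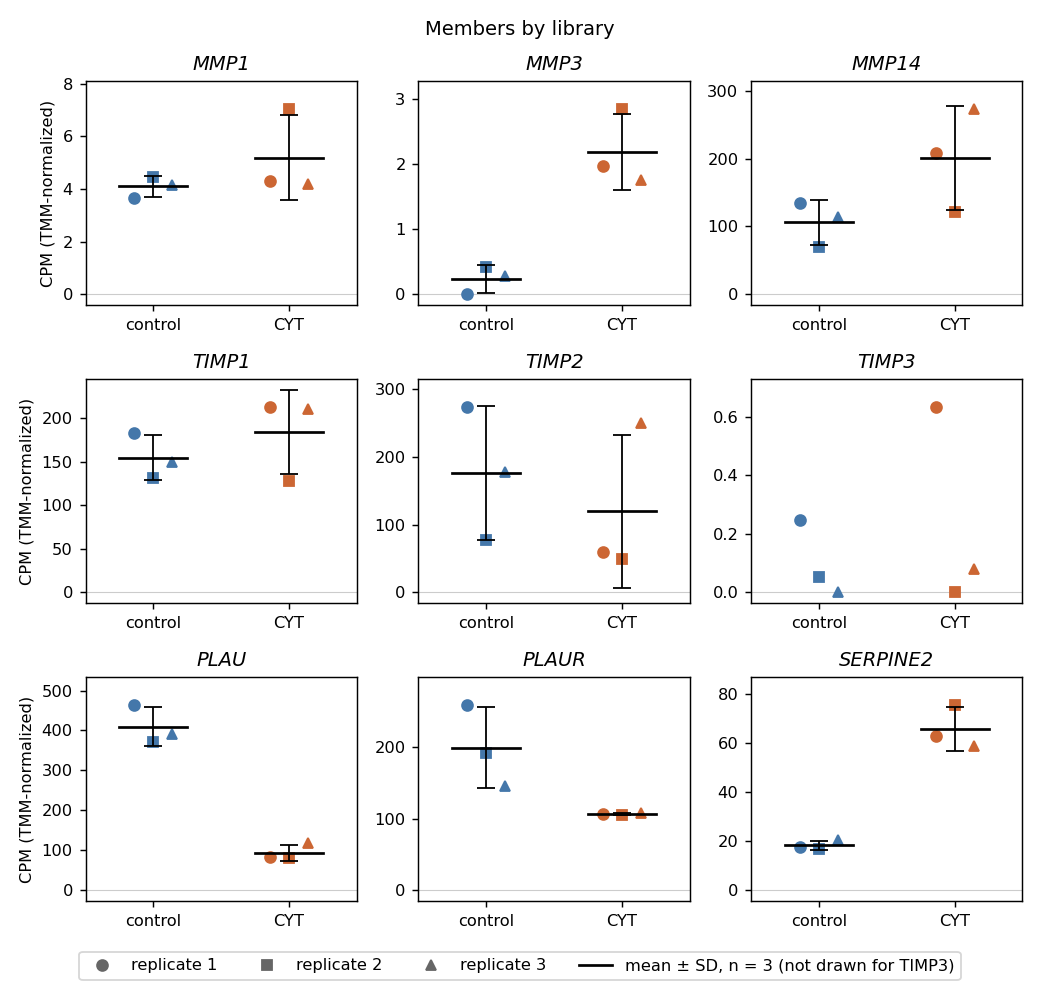
CPM of each of the 9 genes (vertical axis, linear, a scale of its own in each panel) in the control and CYT libraries. Points are libraries, with a shape for each replicate number, and bars are the mean and SD of 3 libraries (not drawn for TIMP3). PLAU and PLAUR lie lower and SERPINE2 and MMP3 higher in every CYT library than in any control library, and TIMP2 is spread widely in both groups.

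PLAU (ENSG00000122861), the gene of urokinase, is on GRCh38 chromosome 10, from 73909177 to 73917497 on the plus strand. The control replicates 1 to 3 had 7491, 6968 and 5458 PLAU counts, and the CYT replicates had 1185, 1142 and 1479. As CPM these were 464.4, 371.0 and 392.4 in control and 83.6, 81.3 and 117.5 in CYT libraries. The highest CYT library thus stayed far below the lowest control library. The mean was 409.3 ± 48.9 CPM (SD, n = 3) in control and 94.1 ± 20.3 CPM (SD, n = 3) in CYT-treated cells, and the PLAU level fell by 2.12 in log2 units (SE 0.29, edgeR adjusted p = 0.00131), a level 4.35-fold lower. The call held in all 15 alternative fits, with log2 fold changes from -2.29 to -1.97. On the opposite strand, C10orf55 shares 916 exonic bases with PLAU in GENCODE release 29, and the use of strand in counting is not given in the sources used here. C10orf55 went the other way, with 33, 36 and 36 counts in control and 111, 85 and 103 in CYT libraries (log2 fold change 1.75, SE 0.37, edgeR adjusted p = 0.00711). Its counts were small beside those of PLAU in every library.

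PLAUR (ENSG00000011422), the gene of the urokinase receptor, lies on chromosome 19 from 43646095 to 43670547 on the minus strand. Its level was 259.2, 191.8 and 146.2 CPM in the control replicates and 105.9, 105.3 and 107.4 CPM in the CYT replicates. The control libraries differed among themselves by more than the lowest of them differed from the CYT libraries, while the CYT libraries were nearly equal. Its log2 fold change of -0.91 (SE 0.30, edgeR adjusted p = 0.0472) was under the limit of 1 in size, so PLAUR was not called. This p lay close to the threshold. With each library left out in turn, it was over 0.05 in 5 of 6 fits (from 0.037 without CYT replicate 2 to 0.171 without control replicate 1).

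SERPINE2 (ENSG00000135919), also known as protease nexin 1, lies on chromosome 2 from 223975112 to 224039319 on the minus strand. Its counts were 283, 315 and 284 in the controls and 887, 1061 and 738 after CYT. In CPM the control libraries held 17.5, 16.8 and 20.4, and the CYT libraries 62.6, 75.5 and 58.6, with no overlap. SERPINE2 rose by 1.85 in log2 units (SE 0.29, edgeR adjusted p = 0.00211), a level 3.59-fold higher. Its spread within groups was low, with an SD of 0.17 on the log2 scale, and 94.7% of all genes tested had a larger one. The call held in all 15 alternative fits, with log2 fold changes from 1.37 to 2.0.

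The metalloproteinases MMP1 (ENSG00000196611) and MMP3 (ENSG00000149968) lie next to each other on chromosome 11, on the minus strand, from 102789920 to 102798160 and from 102835801 to 102843803, with 37.6 kb between them. MMP1 had 59, 84 and 58 counts in control and 61, 99 and 53 in CYT libraries, or 3.66, 4.47 and 4.17 CPM against 4.30, 7.05 and 4.21 CPM. CYT replicate 2 was the highest, and the other CYT libraries lay within the range of the controls. Its log2 fold change came to 0.34 (SE 0.38, edgeR adjusted p = 0.532), and without CYT replicate 2 it was 0.05. MMP3 had 0, 8 and 4 counts in control and 28, 40 and 22 in CYT libraries, or 0, 0.426 and 0.288 CPM against 1.97, 2.85 and 1.75 CPM. The groups did not overlap. MMP3 rose by 3.14 in log2 units (SE 0.78, edgeR adjusted p = 0.015). With each library left out in turn, it was called in 5 of 6 fits and not without control replicate 3 (edgeR adjusted p = 0.0599). In these fits its log2 fold change ran from 2.55 (without control replicate 1) to 3.89 (without control replicate 2). With no count in control replicate 1, where 3 counts would be 0.186 CPM, the size of its fold rests on few reads. Even after the rise it was the lowest but 1 of the 9 genes in level.

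MMP1 and MMP3 belong to a cluster of 9 metalloproteinase genes that spans 435.2 kb of chromosome 11 (102520508 to 102955734). In that cluster MMP1 and MMP3 alone passed the filter. MMP12, MMP20 and MMP27 had no count in any library, and MMP8 had 2 counts in CYT replicate 3 alone. MMP7, in the same cluster, was at 0 in the controls, with 2, 0 and 8 counts after CYT. MMP10, next to MMP1, had 0, 1 and 3 counts in control and 1, 7 and 7 in CYT libraries, and MMP13 had 0, 4 and 3 and then 14, 3 and 6. A difference in these genes was not detectable at this depth. WTAPP1, on the opposite strand and overlapping exons of MMP1 and MMP3, had no count in any library.

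MMP14 (ENSG00000157227), on chromosome 14 from 22836557 to 22849027 on the plus strand, was the most abundant of the 3 metalloproteinase genes. It had 2178, 1321 and 1586 counts in control and 2951, 1699 and 3440 in CYT libraries. In CPM these were 135.0, 70.3 and 114.0 against 208.1, 120.9 and 273.3. The ranges overlapped, since CYT replicate 2 lay below control replicate 1. Its log2 fold change came to 0.92 (SE 0.38, edgeR adjusted p = 0.1), and MMP14 was not called. With the replicate number as a block, the adjusted p was 0.0202 with a log2 fold change of 0.89, which still missed the limit of 1. Without CYT replicate 2, MMP14 was called higher (log2 fold change 1.18, edgeR adjusted p = 0.0154).

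TIMP1 (ENSG00000102265), on chromosome X from 47582313 to 47586789, was the most abundant of the 3 TIMP genes by FPKM, although not by mean CPM in control cells. Its level was 182.6, 131.3 and 149.4 CPM in control and 213.0, 128.2 and 210.1 CPM in CYT libraries. The lowest of the 6 libraries was CYT replicate 2, and the groups overlapped. Its log2 fold change came to 0.25 (SE 0.31, edgeR adjusted p = 0.575).

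TIMP2 (ENSG00000035862), on chromosome 17 from 78852977 to 78925387, varied more between replicates than between the groups. It had 4417, 1438 and 2469 counts in control and 844, 695 and 3148 in CYT replicates 1 to 3, or 273.9, 76.6 and 177.5 CPM against 59.5, 49.5 and 250.1 CPM. CYT replicates 1 and 2 lay below every control library, and CYT replicate 3 lay above all but control replicate 1. Its log2 fold change came to -0.56 (SE 0.65, edgeR adjusted p = 0.553). Without CYT replicate 3 it was -1.66 with an adjusted p of 0.0582 from edgeR, and without control replicate 1 it was -0.11. The SD within groups was 1.12 on the log2 scale, and 1.93% of all genes tested had a larger one. CEP295NL, which overlaps TIMP2 on the same strand, had at most 17 counts in a library. The other genes overlapping a member were near 0. SYN1 at TIMP1 had 4 counts in control replicate 1 alone, AC100788.2 at TIMP2 had 3 in CYT replicate 1 alone, and AC100788.1 at TIMP2 and RN7SL368P at PLAUR had 1 count in 1 library each. AC022966.1 at TIMP2 and SYN3 at TIMP3 had no count in any library. TIMP3 (ENSG00000100234), on chromosome 22 from 32801701 to 32863043, had 4, 1 and 0 counts in control and 9, 0 and 1 in CYT libraries, and no difference was detectable at this depth.

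The members also differed in how the libraries with replicate number 2 stood in their groups. MMP14, TIMP1, TIMP2 and PLAU were lowest in replicate 2 of both groups, and MMP1 and MMP3 were highest there. Over all genes tested, 27.5% were lowest in replicate 2 of both groups and 27.4% highest, so this order was common in the table.

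To compare levels between genes, FPKM was used, which the authors divided by the length of each gene. The length that these values imply was 1.0 to 1.93 times the exonic length in GENCODE release 29, depending on the gene. In control cells PLAU led with 87.2 ± 5.16 FPKM (SD, n = 3), followed by TIMP1 with 67.3 ± 7.02 and PLAUR with 22.8 ± 5.63 FPKM. TIMP2 (18 ± 9.2 FPKM) and MMP14 (17.3 ± 4.43 FPKM) came next, and the ranges of PLAUR, TIMP2 and MMP14 overlapped from each gene to the next. MMP1 (2.07 ± 0.338 FPKM) and SERPINE2 (1.51 ± 0.165 FPKM) followed, and MMP3 and TIMP3 were under 1 FPKM in every control library. After CYT treatment TIMP1 led with 80.9 ± 17.7 FPKM, ahead of MMP14 (33.0 ± 10.6 FPKM), PLAU (20.3 ± 3.07 FPKM) and PLAUR (12.4 ± 0.737 FPKM). PLAU thus moved from the first place to the third, and its range overlapped that of MMP14. TIMP2 (12.3 ± 10.9 FPKM) overlapped PLAUR above it and SERPINE2 below it. SERPINE2 (5.54 ± 1.13 FPKM) stood above MMP1 (2.68 ± 1.01 FPKM) in CYT-treated cells, with no overlap, while in control cells it stood below MMP1. On the exonic lengths, an alternative chosen after seeing the data, the order of the 9 genes was the same in both groups, but SERPINE2 (1.83 to 2.27) and MMP1 (1.73 to 2.4) overlapped in control cells, and TIMP2 and SERPINE2 did not overlap after CYT. These FPKM values are not scaled by the TMM method.

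**Figure D2:**
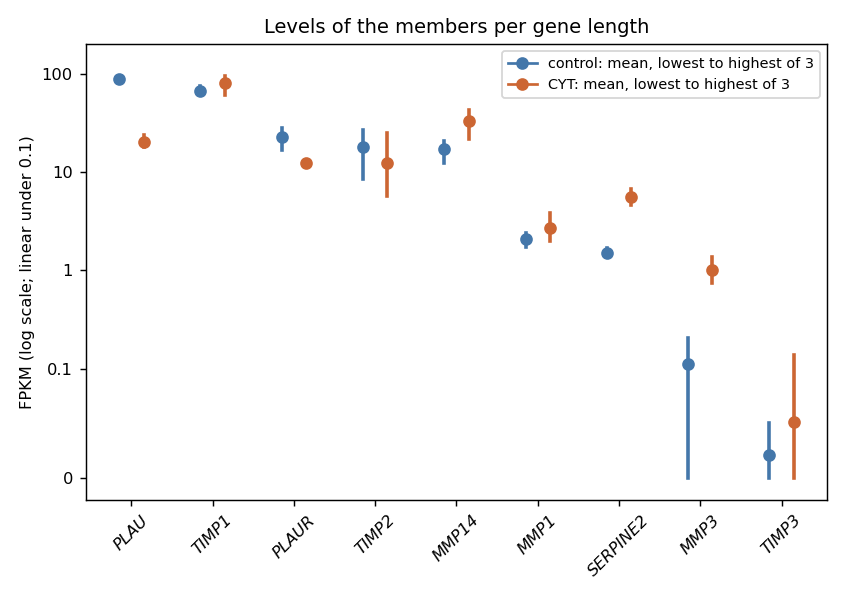
FPKM of the 9 genes (vertical axis, logarithmic, linear under 0.1) in the order of their control means. Points are means and lines run from the lowest to the highest of 3 libraries. PLAU drops from 87.2 to 20.3 FPKM and falls below TIMP1 and MMP14, and SERPINE2 lies above MMP1 in the CYT libraries.

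Ratios between 2 genes were taken within each library from FPKM + 0.1. For genes well above 0.1 FPKM they depend little on how libraries are scaled, and for MMP3, at most 0.203 FPKM in control libraries, the added 0.1 weighs on the ratio. There were 5 ratios compared with an exact permutation test, which with 3 libraries against 3 cannot give a two-sided p under 0.1. Urokinase transcript per SERPINE2 transcript was 63.8, 53.6 and 46.9 in control and 3.40, 2.75 and 5.09 in CYT libraries. This is the largest of the 5 differences, a ratio 15-fold lower in CYT-treated cells, with no overlap (exact permutation test, two-sided p = 0.1, adjusted p = 0.125 over the 5 ratios). PLAU per PLAUR was 3.31, 3.57 and 4.95 in control and 1.46, 1.43 and 2.02 in CYT libraries, 2.41-fold lower with the same p values and no overlap. Each CYT library thus had less ligand transcript per receptor transcript than any control library.

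MMP14 per TIMP2 was 0.774, 1.44 and 1.01 in control and 5.42, 3.79 and 1.71 in CYT libraries, so these groups did not overlap either, although TIMP2 and, in CPM, MMP14 each did (3.15-fold higher, exact permutation p = 0.1, adjusted p = 0.125 over the 5 ratios). CYT replicate 3, the library with a high TIMP2 level, lay closest to the controls. MMP1 per TIMP1 was 0.0243, 0.0407 and 0.0335 in control and 0.0242, 0.0646 and 0.0241 in CYT libraries, with overlap (exact permutation p = 1.0). MMP1 per MMP3 was 18.3, 8.24 and 9.60 in control and 2.30, 2.66 and 2.50 in CYT libraries. The added 0.1 sets that ratio in control replicate 1, where MMP3 had no count, and lowers it in the other control libraries, and the difference of -2.19 on the log2 scale was -0.61 with 1 added in place of 0.1. The groups did not overlap (exact permutation p = 0.1, adjusted p = 0.125).

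**Figure D3:**
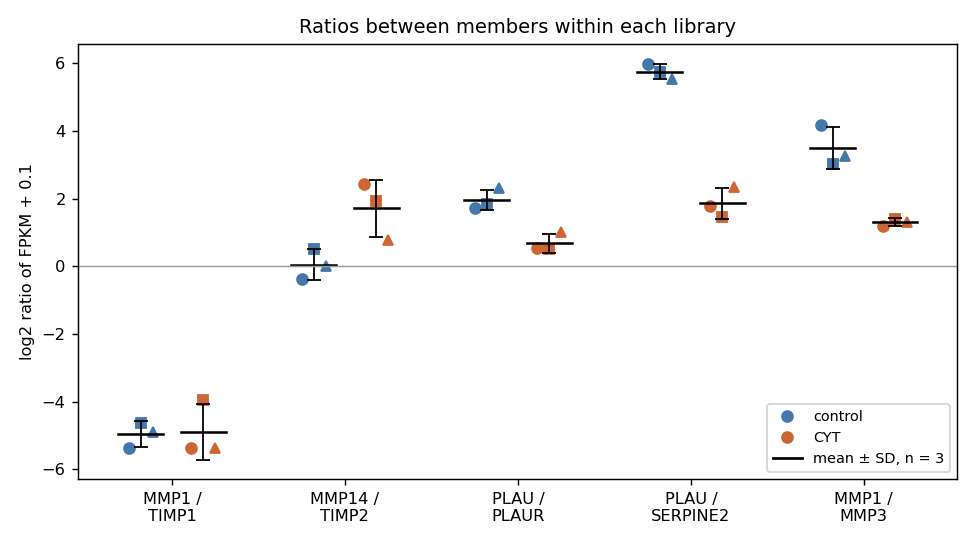
Log2 ratio of FPKM + 0.1 between pairs of members within each library (vertical axis), with control in blue and CYT in orange. Point shapes are replicate numbers (circle 1, square 2, triangle 3), and bars are the mean and SD of 3 libraries. PLAU to SERPINE2 drops from a log2 mean of 5.76 to 1.86, and MMP1 to TIMP1 overlaps between the groups.

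Of 14 other genes of the plasminogen system, 9 passed the filter, of which 2 were called higher and 1 lower, with a median log2 fold change of -0.39. The share called, 33.3%, lay near the 27.4% of all genes tested, and it was 25% over the 8 genes that passed through both groups. The gene called lower was PLAT, tissue plasminogen activator, the other main activator beside urokinase. Its level was 46.1, 35.5 and 38.5 CPM in control and 9.45, 6.55 and 11 CPM in CYT libraries (log2 fold change -2.16, SE 0.33, edgeR adjusted p = 0.0019). PLAU fell 4.35-fold and PLAT 4.46-fold. The genes called higher were SERPINI1 and SERPINB2. SERPINI1 (neuroserpin), an inhibitor of tissue plasminogen activator, had 4.71, 4.95 and 4.53 CPM in control and 18.9, 42.3 and 27.3 CPM in CYT libraries (log2 fold change 2.64, SE 0.38, edgeR adjusted p = 0.00156). SERPINB2 (plasminogen activator inhibitor 2) had 5, 2 and 0 counts in control and 40, 62 and 40 in CYT libraries (log2 fold change 4.53, SE 0.75, edgeR adjusted p = 0.0026), and it passed the filter through the CYT libraries alone. With few control counts, its fold depended on 1 library and the pseudocount, with a log2 fold change of 5.66 without control replicate 1 and 0.83 in limma on log2(FPKM + 1). The calls of PLAT and SERPINI1 held in all 15 alternative fits.

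Of 12 other regulators of matrix protease activity, 9 passed the filter, of which 1 was called higher and 1 lower (22.2%, beside 27.4% of all genes tested), with a median log2 fold change of 0.46. TFPI2, a secreted inhibitor of plasmin and other serine proteases, had 76.8, 99.2 and 94.7 CPM in control and 427.8, 663.0 and 461.2 CPM in CYT libraries (log2 fold change 2.52, SE 0.31, edgeR adjusted p = 0.000802). TIMP4, the remaining member of the TIMP family, fell from 32.3, 24.2 and 21.8 CPM to 6.70, 4.84 and 9.77 CPM (log2 fold change -1.88, SE 0.37, edgeR adjusted p = 0.00526). Of the 4 TIMP genes, TIMP4 was the one called.

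Of 20 other metalloproteinase genes, 7 passed the filter, of which 2 were called higher (28.6%, beside 27.4% of all genes tested, and 1 of 6, or 16.7%, among those that passed through both groups), and 7 had at most 3 counts in every library. MMP25, a membrane-anchored enzyme, rose from 3, 4 and 4 counts to 50, 12 and 51 counts (log2 fold change 3.58, SE 0.70, edgeR adjusted p = 0.00523), and it passed the filter through the CYT libraries alone. In limma on log2(FPKM + 1) its log2 fold change was 0.56, too small for a call. MMP15, a membrane-type metalloproteinase like MMP14, had 14.1, 10.2 and 9.71 CPM in control and 40.9, 13.2 and 37.4 CPM in CYT libraries and was called higher (log2 fold change 1.42, SE 0.44, edgeR adjusted p = 0.0371). CYT replicate 2 lay below control replicate 1. With each library left out in turn, the call of MMP15 held in 1 of 6 fits, the one without CYT replicate 2 (adjusted p = 0.00171), and the other fits gave up to 0.130. The median log2 fold change was 1.12 over the 7 genes and 0.63 over the 6 that passed the filter through both groups. MMP19, not called here, was called with the replicate block (log2 fold change 1.16, edgeR adjusted p = 0.0433) and with upper-quartile scaling. MMP2, the enzyme whose precursor MMP14 activates, had 0, 1 and 1 counts in control and 3, 0 and 6 in CYT libraries and was not tested.

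Of 22 ADAM and ADAMTS protease genes, 14 passed the filter, of which 2 were called higher and 1 lower (21.4%, beside 27.4% of all genes tested, and 15.4% over the 13 that passed through both groups), with a median log2 fold change of 0.36. ADAMTS9, which cleaves aggrecan and versican, rose from 3.72, 2.56 and 3.16 CPM to 10.8, 15.5 and 8.03 CPM (log2 fold change 1.86, SE 0.38, edgeR adjusted p = 0.00647). ADAMTS4, another aggrecanase, had 5, 0 and 0 counts in control and 54, 29 and 48 in CYT libraries (log2 fold change 4.86, SE 0.93, edgeR adjusted p = 0.0049) and passed the filter through the CYT libraries alone. Its control counts came from 1 library, and the log2 fold change was 8.56 without that library (control replicate 1) and 0.33 in limma on log2(FPKM + 1). ADAMTS15 fell from 6.45, 6.66 and 5.18 CPM to 1.83, 1.35 and 2.62 CPM (log2 fold change -1.65, SE 0.40, edgeR adjusted p = 0.0143), and its adjusted p was 0.0504 without CYT replicate 1. In limma on log2(FPKM + 1) the log2 fold changes of ADAMTS9 and ADAMTS15 were 0.52 and -0.63, too small for a call, and in edgeR's test against a log2 fold change of 1 their adjusted p values were 0.0539 and 0.126.

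**Figure D4:**
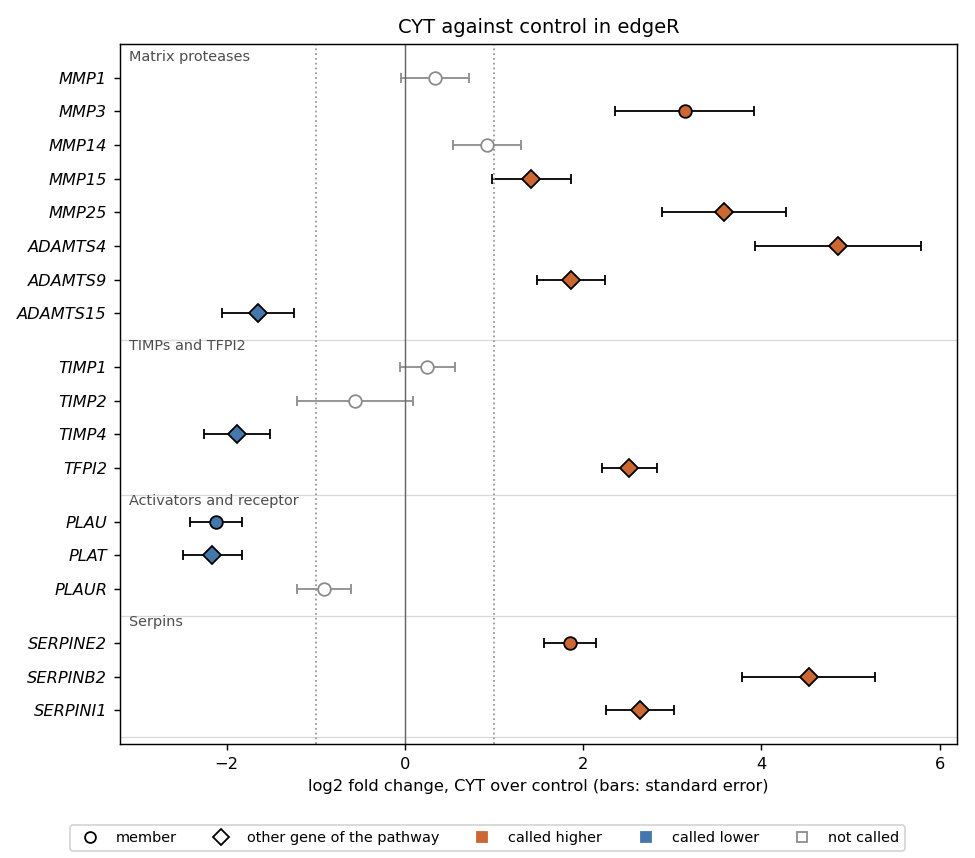
Log2 fold change of CYT over control (horizontal axis, edgeR) with its standard error for members (circles) and other genes of the pathway (diamonds). Filled symbols were called higher (orange) or lower (blue), open symbols were not called, and dotted lines mark the limits of 1 and -1. PLAU and PLAT lie at -2.12 and -2.16, and SERPINE2, SERPINI1, SERPINB2 and TFPI2 lie at 1.85 or more.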

How the data were processed

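RNA of 3 control and 3 CYT libraries was sequenced on an Illumina NovaSeq platform. The authors filtered reads by quality, adapter and match to ribosomal RNA, aligned the rest with Hisat2 (hg38 and FastQC 0.12.1 per the submitters' processing notes), and deposited raw counts and FPKM per gene. FPKM was made with Stringtie. The counting program, its use of strand and its annotation are not given in the sources used here.

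The test on counts was edgeR's (version 4.0.16, R 4.3.3, TMM, filterByExpr with a minimum count of 10, quasi-likelihood test, no block). The standard error is the log2 fold change divided by the square root of F. Counts were simulated for the 15572 genes in 3 simulations, with a log2 change of 2, up or down, in 200 genes. By the adjusted p under 0.05 alone, edgeR recovered 134 to 150 of these 200, and 3.23% to 5.63% of the genes that passed were false. The simulated libraries were drawn independently of each other. In the data 28.6% of all genes tested passed this limit, far more than were changed in the simulations. The simulated shares thus do not describe the calls made here. Same-numbered libraries deviated together from their group means (r of 0.188, 0.458 and 0.124 for numbers 1 to 3), which met the rule used for pairing (every r over 0.1), although control 1 with CYT 3 (0.303) and control 3 with CYT 1 (0.201) correlated more than numbers 1 and 3 did. The main fit still had no block, because the study names none for its sequencing, and the replicate block was run as an alternative. For comparing 2 groups in general, the study names a paired t-test. Loci are as deposited, and overlaps and strands are from GENCODE release 29. Alternatives used DESeq2 1.42.0, limma 3.58.1 and the others named in the closing section. The members and gene lists were chosen with earlier results of these data known. Beside the members, genes named were PLAT, MMP2, genes overlapping a member, and in each list at most 5 called genes with a mean of at least 1 CPM. A further gene fixed by name is not reported here. The other genes of the metalloproteinase cluster, genes called under an alternative alone, the markers and the motifs were named after their values were seen.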

Additional observations from a re-analysis of the deposited data

How the results depend on the processing

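The call of PLAU as lower and of SERPINE2 as higher held in all 15 alternative fits. The number of members called higher, 2, was 1 when genes had to average 5 CPM, which left MMP3 untested, and 1 in a limma fit of log2(FPKM + 1), with MMP3 at 0.85 (log2). The number ranged from 1 (without control replicate 3) to 3 (without CYT replicate 2) with a library left out. The number called lower, 1, was 2 with the adjusted p alone, which adds PLAUR, and 1 with each library left out.

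Over the 4 lists of other genes, 7 were called higher and 3 lower, 10 of 39 tested (25.6%, beside 27.4% of all genes tested). Of the 7 higher calls, 3 (MMP25, SERPINB2 and ADAMTS4) were of genes that passed the filter through the CYT libraries alone. Their place among the 39 thus already rests on a higher level after CYT. Higher calls were 4 of 25 for genes averaging 5 CPM or more (12.2% of all genes tested, against 15.2%) and 2 of 39 in the limma fit of log2(FPKM + 1) (8.12%), and leaving out single libraries gave 6 to 12 (12 of 41 without CYT replicate 2, 16.4% of all genes). Lower calls were 6 of 52 with DESeq2 (10.6% of all genes, against 12.2%), 5 of 64 without a filter (6.78%) and 6 of 39 with the replicate block (15.5%), and leaving out single libraries gave 2 to 4. The denominators and the calls over all genes moved too, and the cause was not tested. The replicate block added ADAM19, ADAMTS6 and SERPINF2 to the lower calls and MMP19 to the higher calls, and changed no call of a member. The difference of the MMP1 to TIMP1 ratio, 0.06 on the log2 scale, was -0.01 with log2(FPKM + 1) and ranged from -0.41 (without CYT replicate 2) to 0.30 with a library left out, with -0.14 without control replicate 1. The other 4 ratios kept their direction in all 9 alternatives, but the MMP1 to MMP3 difference, -2.19, was -0.61 with log2(FPKM + 1) and -2.74 with log2(CPM + 0.1). With upper-quartile scaling the median over all genes was 0.16 in place of 0.0064 (log2), and no tested member changed direction under it. Depth limits TIMP3, MMP2 and, in control cells, MMP3.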
